A study of Homo sapiens with 480 samples.

Results

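The 66 genes described here encode nuclear subunits of the 5 oxidative phosphorylation (OXPHOS) complexes, measured in single BJ fibroblasts during reprogramming. They are the rows of the deposited tables whose symbols name a subunit of complex I (37 genes, NDUFA, NDUFB, NDUFC, NDUFS and NDUFV), complex II (4, SDHA to SDHD), complex III (8, UQCR), complex IV (10, COX) or complex V, the ATP synthase (7, ATP5), out of 27021 genes in all. The choice used symbols only and no measured value. BJ is an established human cell line, grown from neonatal skin fibroblasts. The 480 cells fall into 5 groups of 96: untreated BJ cells labelled WT, cells 2 and 8 days after induction of the virally delivered reprogramming factors OSKM (OCT4, SOX2, KLF4 and MYC), and day 16 of the same treatment split into TRA-1-60 positive and TRA-1-60 negative cells. TRA-1-60 is a surface epitope of pluripotent cells. Separate cultures or infections within a group are not named in the labels. A group is therefore 1 sample whose cells are not replicates, and no test between groups was made. Every ratio below compares 2 such groups of cells.

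OXPHOS passes electrons from NADH and succinate through complexes I to IV to oxygen, pumping protons across the inner mitochondrial membrane, and complex V uses the proton gradient to make ATP. Subunits come from both the nuclear and the mitochondrial genome and must be joined in fixed proportions. Fibroblasts and pluripotent cells both express these genes, and pluripotent cells are known for a large use of glycolysis beside respiration. The 13 subunits encoded by mitochondrial DNA are not analysed here.

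Values are FPKM (fragments per kilobase of transcript, scaled to library size) rescaled to a total of 1000000 per cell, so that levels of different genes are compared per length. A cell was kept with at least 2000 genes at a value of 1 or more and with ACTB or GAPDH detected, which left 92 BJ cells, 96 of day 2, 92 of day 8, 95 of the positive and 85 of the negative fraction. The median kept cell had between 5678 and 5915 detected genes in every group, but cells under 4000 genes numbered 8, 15, 4, 32 and 3 in that order, so the positive fraction holds by far the most cells of low complexity. The tables carry no read counts, and the depth of each cell is unknown. The labels were set against cell type markers: of 10 fibroblast genes COL1A1 had a mean of 635 in BJ, 7.75 among positive and 1162 among negative cells, and of 9 pluripotency genes NANOG had 0.00225, 172 and 0.639. Among markers of other cell types, HBA2 reached a mean of 374 on day 2 and 60.5 on day 8 and was listed at 0 in the other groups, PTPRC did not exceed 1.02 in any group, and the endothelial genes PECAM1, CDH5 and VWF did not exceed 0.827. Their part in the results was not tested.

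Together the 66 genes made up a few percent of a cell's rescaled total. The median share was 3.7% in BJ (quartiles 3.33 and 4.21, n = 92 cells) and 3.74% on day 2 (3.48 and 4.05, n = 96). It was 4.56% on day 8 (4.27 and 4.91, n = 92), 4.29% in the positive fraction (3.29 and 4.69, n = 95) and 3.98% in the negative fraction (3.68 and 4.32, n = 85). Day 8 stood highest, and its lower quartile lay above the upper quartiles of BJ and of day 2. BJ and day 2 differed by less than the spread between cells of either. Single cells ranged from 0.347 to 5.24% in BJ, 0.26 to 9.05% on day 2, 3.5 to 8.45% on day 8, 0.743 to 6.41% among positive and 2.86 to 5.19% among negative cells, so day 8 and the negative fraction held no cell with a very low share.

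The low tail of the positive fraction moved with complexity. Its 32 cells under 4000 genes had a median share of 2.76%, with a median of 35.5 of the 66 members detected, and its other 63 cells had 4.51%, next to the 4.55% of day 8. Over the 95 positive cells the share and the number of detected genes had a Spearman rho of 0.632, against 0.23 on day 2 and between -0.045 and 0.111 in the other groups, values given as a description over cells of 1 library set each. Whether the cells of low complexity are a state of the cells or of their libraries was not tested.

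**Figure D1:**
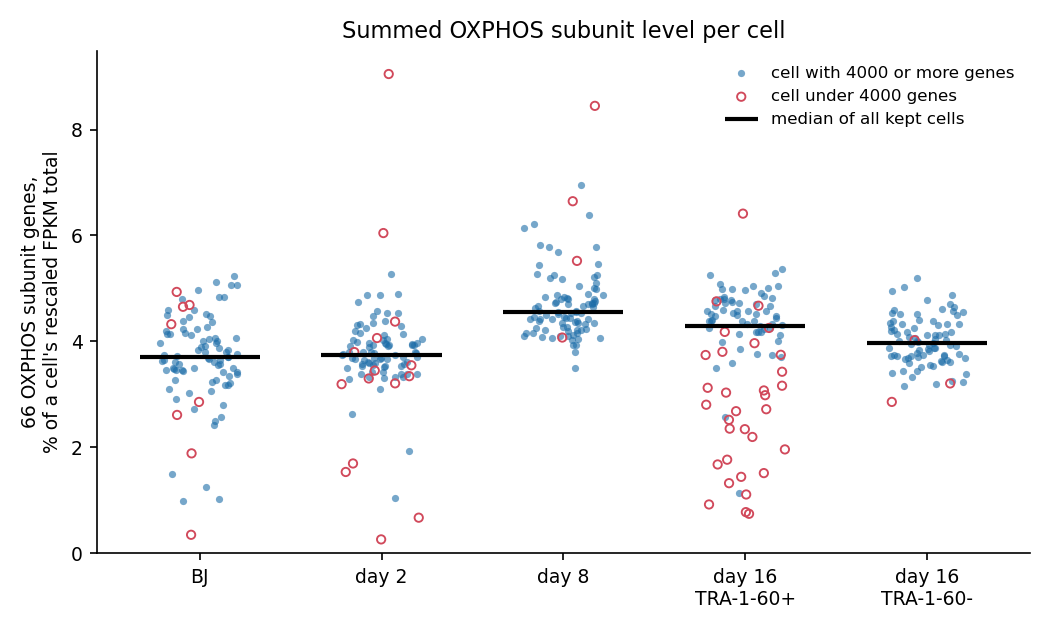
Summed level of the 66 OXPHOS subunit genes in each kept cell, as a percentage of the cell's rescaled FPKM total, by group; filled points are cells with 4000 or more detected genes, open points cells under 4000, and bars the medians of all kept cells. The day 8 median of 4.56% is the highest, and most cells of the positive fraction below 3% are open points.

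Most members were abundant and widely detected. The median member had a mean level of 380 in BJ, 326 on day 2, 468 on day 8, 400.1 among positive and 329.5 among negative cells, and 57 to 59 of the 66 had a mean of 100 or more in each group. A member was found in at least 90% of kept cells for 52 genes in BJ, 48 on day 2, 62 on day 8, 16 among positive and 55 among negative cells, and 16 reached that share in all 5 groups. Levels per length were higher for members with shorter transcripts. Spearman rho lay between -0.604 and -0.518 over the 66 genes in the 5 groups, genes not being independent. With coding length it was weaker, from -0.462 in BJ to -0.265 in the negative fraction. ATP5E has a short coding sequence of 156 bases but a listed transcript of 3665, so it goes against the relation with transcript length. Which isoforms the cells express was not tested, nor was the part of length in the rank of a gene.

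Complex I, the NADH dehydrogenase, supplied the largest share of the OXPHOS sum, with a median over cells between 39.6% on day 8 and 43.6% in the negative fraction. By the mean over the 5 groups its most abundant genes were the accessory subunits NDUFA1 (means 1715, 2456, 2009, 1696 and 2611 in BJ, day 2, day 8, positive and negative fraction) and NDUFA13 (1033, 899, 1438, 1244 and 1594). Its least abundant was NDUFA5, at 14.03, 14.8, 14.1, 31.1 and 14.7, with its highest mean in the positive fraction. NDUFA4 is counted here by its symbol, although its protein is now assigned to complex IV.

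Complex II, succinate dehydrogenase, gave a median of only 0.983 to 1.39% of the sum. The iron-sulfur subunit SDHB (171, 183, 274, 179 and 258) and the membrane anchor SDHD (165, 211, 221, 277 and 201) led it, with the flavoprotein SDHA at 29.5, 44.4, 80.8, 75.5 and 115. SDHC, the other membrane anchor, had means of 3.02, 6.76, 3.16, 6.25 and 12.96, the lowest of all 66 members in every group. It was detected in 39.1% of BJ cells (exact binomial 95% interval 29.1 to 49.9), and in 47.9, 46.7, 45.3 and 70.6% (59.7 to 79.98) of the other groups in the same order. Intervals on shares of cells cover counting error only.

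Complex III, the cytochrome bc1 complex, took a median of 7.28% of the sum in BJ, 8.49 on day 2, 8.4 on day 8, 9.59 among positive and 6.19 among negative cells. UQCRH, the hinge protein, led it, and by the mean over the 5 groups the core protein UQCRC1 came next, at 337, 279, 535, 599.6 and 704, although UQCR10 stood above it in BJ (375) and on day 2 (381). UQCRB, a small subunit at the ubiquinone site, had the lowest mean over the 5 groups, at 66.2, 139, 57.7, 94.4 and 38.4. Without UQCRH the rest of complex III summed to median shares of a cell of 0.136, 0.139, 0.194, 0.206 and 0.169%, so BJ and day 2 were lowest and the negative fraction was not.

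Complex IV, cytochrome c oxidase, gave a median of 29.4 to 33.4% of the sum. COX7C led with means of 2067, 2249, 3429, 3535 and 2723, ahead of COX8A at 2426, 1521, 2064, 1049.5 and 875, and COX5A had the lowest mean over the 5 groups, at 385, 465, 538, 728 and 331. COX7C and COX8A, both small subunits, thus differed in order between groups, with COX8A above COX7C only in BJ.

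Complex V depended on how 1 gene was treated. Its share of the sum was 17.5% in BJ, 16.1 on day 2, 17.5 on day 8, 14.2 among positive and 18.3 among negative cells, but ATP5E alone, the epsilon subunit of the catalytic head, supplied a median of 9.48, 7.29, 6.27, 1.49 and 8.21% of the sum. Without ATP5E, the other 6 genes summed to a median of 0.277% of a cell in BJ (quartiles 0.199 and 0.334), 0.316% on day 2 (0.199 and 0.375), 0.525% on day 8 (0.427 and 0.581), 0.525% among positive (0.37 and 0.598) and 0.393% among negative cells (0.339 and 0.447). The quartile ranges of BJ and day 8 did not overlap. The beta subunit ATP5B had means of 890, 983, 1623, 1707 and 1169, and the delta subunit ATP5D was lowest at 38.96, 26.2, 52.2, 56.2 and 51.1.

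**Figure D2:**
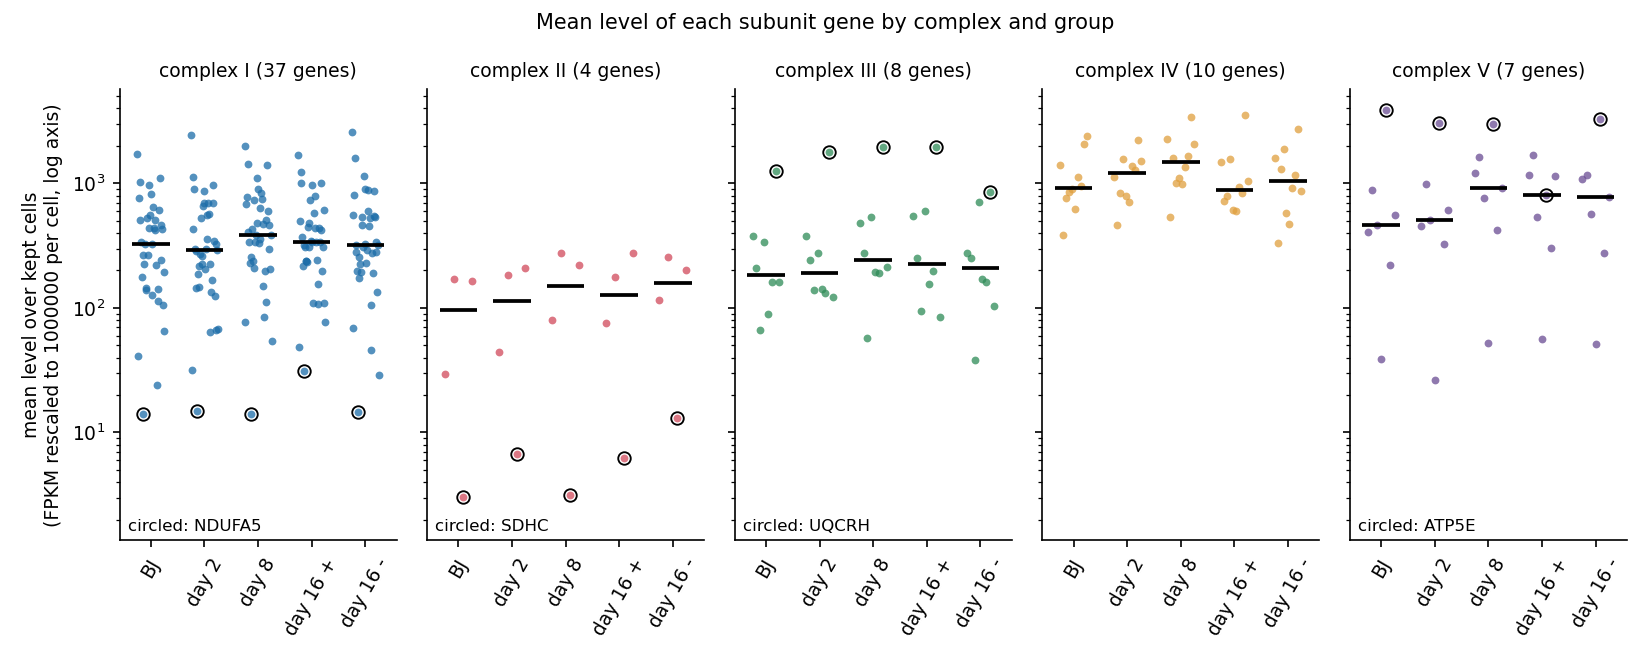
Mean level of each of the 66 genes over kept cells (rescaled FPKM, log axis) in the 5 groups, 1 panel per complex, with bars at the median gene; day 16 + and day 16 - are the TRA-1-60-positive and -negative fractions. The circled genes are NDUFA5, SDHC, UQCRH and ATP5E, and ATP5E lies at 807 in the positive fraction against 3017 to 3925 elsewhere.

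The group means of ATP5E spanned 4.87-fold, the widest range among the 66. The mean was 3925 in BJ, 3031 on day 2, 3017 on day 8, 807 among positive and 3308 among negative cells. The median positive cell had 646 (quartiles 174 and 1058), against medians of 3479, 2790, 2907 and 3136 in the other groups. Of 95 positive cells, 92 lay below the lower quartile of the negative fraction (2671), and no negative or day 8 cell lay below the positive median. ATP5E was detected in 81 of 95 positive cells (85.3%, exact 95% interval 76.5 to 91.7) and in all 85 negative cells. The log2 ratio of means was -2.03 for positive over negative and -1.90 for positive over day 8. Among cells with 4000 or more genes the means were 939 among positive and 3310 among negative cells, so the gap was of like size there.

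ATP5E and UQCRH have near-identical copies elsewhere in the genome, and reads of a gene and its copy can be assigned to either. By a search of GENCODE 29 transcripts, 23 of the 66 members have at least 1 pseudogene with 90% or more identity over 80% or more of the coding length, 39 pseudogenes in all. For 4 members a copy has a row of its own: the protein-coding gene UQCRHL for UQCRH, which is not among the 39, and the pseudogenes ATP5EP2 for ATP5E, UQCRBP1 for UQCRB, and SDHAP1 and SDHAP2 for SDHA. For the rest, the authors' table gives no second value. The coding sequences of the 2 pairs the results turn on are shown 5′ to 3′, with the bases that differ within a pair in capitals. They are from GENCODE 29 (build GRCh38, not the hg19 build of the tables), where UQCRH lies at chr1:46303631-46316776 on the + strand, UQCRHL at chr1:15807169-15809348 on the - strand, ATP5E at chr20:59025467-59032382 on the - strand and the processed pseudogene ATP5EP2 at chr13:27945260-27945415 on the + strand.
UQCRH: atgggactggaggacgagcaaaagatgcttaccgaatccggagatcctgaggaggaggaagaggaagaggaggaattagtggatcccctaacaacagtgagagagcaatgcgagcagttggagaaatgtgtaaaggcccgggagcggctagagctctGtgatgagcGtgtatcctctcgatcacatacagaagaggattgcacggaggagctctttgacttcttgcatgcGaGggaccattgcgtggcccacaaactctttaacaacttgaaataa
UQCRHL: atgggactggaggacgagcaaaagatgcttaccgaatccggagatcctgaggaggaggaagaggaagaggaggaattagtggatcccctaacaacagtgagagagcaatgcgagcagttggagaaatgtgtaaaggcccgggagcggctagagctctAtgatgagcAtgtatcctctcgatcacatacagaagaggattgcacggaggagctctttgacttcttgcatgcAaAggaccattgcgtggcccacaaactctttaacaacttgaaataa
ATP5E: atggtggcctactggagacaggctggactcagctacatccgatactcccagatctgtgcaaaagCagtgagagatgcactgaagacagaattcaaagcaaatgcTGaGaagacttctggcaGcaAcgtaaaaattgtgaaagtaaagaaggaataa
ATP5EP2: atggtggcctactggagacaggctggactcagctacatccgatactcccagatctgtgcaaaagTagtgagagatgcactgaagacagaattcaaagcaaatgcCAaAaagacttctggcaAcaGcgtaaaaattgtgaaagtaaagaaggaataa

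The UQCRH pair differs at 4 of 276 coding bases (98.55% identity) and the ATP5E pair at 6 of 156 (96.15%). Between those bases gene and copy are the same, and a read that covers none of them fits both. UQCRH had means of 1268 in BJ, 1796 on day 2, 1960 on day 8, 1969 among positive and 851 among negative cells, with medians of 1197, 1796, 1879, 1999.9 and 824. The row of UQCRHL had means of 429.7, 53.6, 619, 784 and 21.04, so it took 25.3, 2.9, 24, 28.5 and 2.41% of the 2 genes' summed means. Adding both rows gave 1698, 1850, 2580, 2752 and 872. The negative fraction was lowest with and without the copy, while the step from day 2 to day 8 was larger in the sum than in UQCRH alone.

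The copies UQCRHL and UQCRBP1 were low in the same groups. SDHAP1 and SDHAP2 are not compared here. UQCRBP1 had means of 6.09, 1.81, 6.84, 7.60 and 0.702, and ATP5EP2 had 103, 40.4, 116, 22.3 and 12.8, so UQCRHL and UQCRBP1 were lowest at day 2 and in the negative fraction. ATP5EP2 was low there too, and also in the positive fraction together with ATP5E. The ribosomal protein gene RPL21, no OXPHOS gene, divided the same tables the other way, with 4.44, 1225, 5.90, 2.49 and 992. Whether the 5 tables were made in the same way is not stated, and the part of this in the UQCRH values was not tested. With the copy row added, the positive fraction was still lowest: ATP5E and ATP5EP2 together had 4029, 3071, 3133, 829 and 3321. The sum cannot count reads left out of both rows. The part of read assignment in the ATP5E values was not tested. The readthrough row SLMO2-ATP5E had only 6.36, 23.8, 17.8, 19.9 and 19.5.

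**Figure D3:**
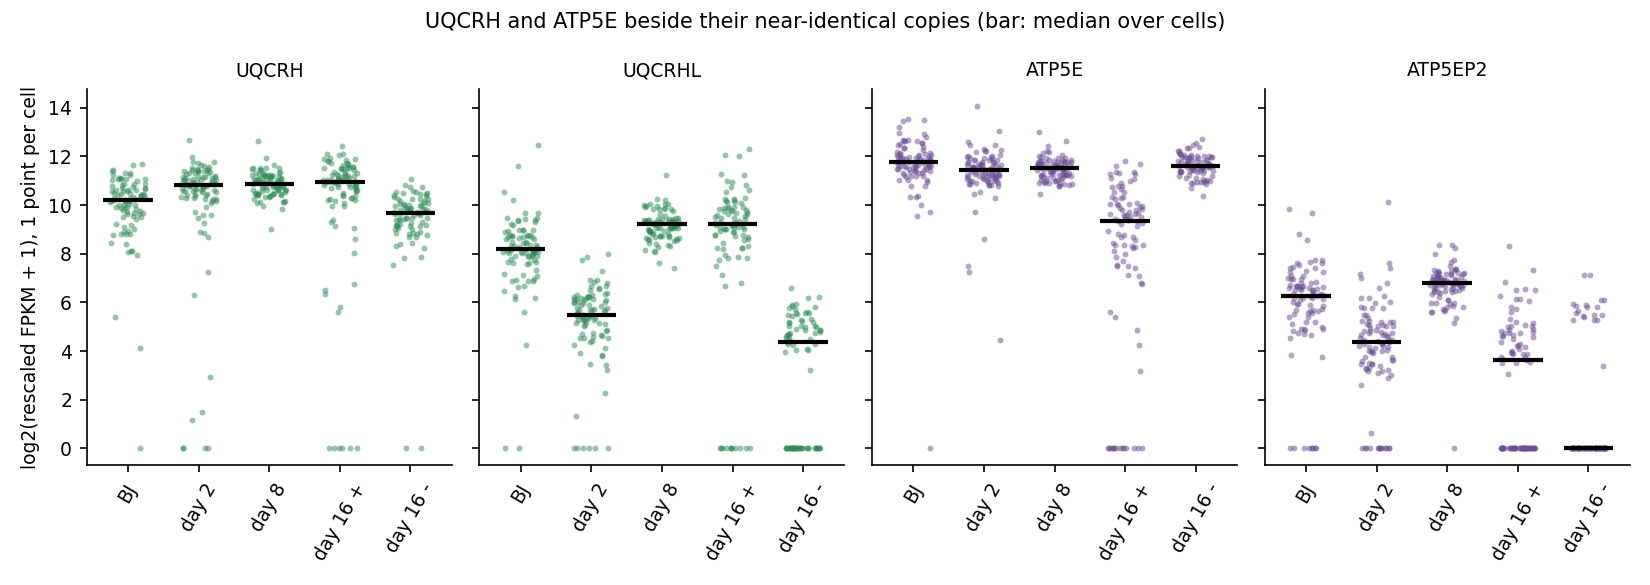
Level of UQCRH, ATP5E and their copies UQCRHL and ATP5EP2 in each kept cell, as log2(rescaled FPKM + 1), by group, with bars at the median over cells. UQCRHL separates day 2 and the negative fraction from the other groups, and ATP5E separates the positive fraction, with a median of 646 against 3136 in the negative fraction.

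Ratios between groups are given as log2((mean + 1)/(mean + 1)), which understates the ratio of low genes, and a gene was counted as different at a ratio of 2-fold or more. These are counts of genes past a size, with no test. At day 2 against BJ, the earliest time after induction, few members moved: 3 of 66 were 2-fold higher and 0 lower (4.55%), against 25.5% of the 12480 measured genes (12.6% higher, 12.9% lower) and 18.7% of the 1326 with a mean of 100 or more. The median member was at 0.08 and the median gene at -0.02. The highest were NDUFS1, an iron-sulfur core subunit of complex I (24.1 to 64.4, log2 1.38), NDUFA12 (509 to 1121, 1.14) and UQCRB (66.2 to 139, 1.06). The lowest were the complex I genes NDUFS7 (245 to 124, -0.97), NDUFB11 (442 to 227, -0.96) and NDUFB7 (645 to 356, -0.85).

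The 3 day 2 calls did not hold without the cells of low complexity. Among cells with 4000 or more genes 0 of 66 members passed 2-fold, and the means were 526.6 and 496 for NDUFA12, 60.7 and 64.2 for UQCRB, and 25.6 and 37.04 for NDUFS1. The direction of NDUFA12 turned there, to -0.09. Its highest day 2 cell was at 54084, with a median cell of 443 on day 2 and 432 in BJ. Leaving out each gene's highest cell also lowered the count of members 2-fold higher at day 2.

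At day 8 against day 2 the members as a whole were higher. The median log2 ratio was 0.45, with 50 of 66 members above 0, beside a median of 0.06 over 12577 measured genes and 0.17 over the 1357 with a mean of 100 or more. Past 2-fold were 6 members higher and 1 lower (10.6%), against 26% of measured genes (13.1% higher, 13% lower) and 20.1% of those with a mean of 100 or more. All 5 complexes had a median above 0: 0.45 for complex I, 0.32 for II, 0.39 for III, 0.46 for IV and 0.60 for V. The 6 higher were NDUFV1, the flavin subunit where NADH is oxidised (66.7 to 205, 1.60), the alpha subunit of the ATP synthase ATP5A1 (457 to 1213, 1.41), NDUFS7, which holds the last iron-sulfur cluster before ubiquinone (124 to 299.9, 1.26), NDUFA10 (31.9 to 77.5, 1.25), NDUFA3 (146 to 336, 1.20) and COX4I1 (1127 to 2266, 1.01). NDUFA7 lay just under the 2-fold line, at 215 and 431. The 1 lower member was UQCRB (139 to 57.7, -1.26), whose day 2 mean was 64.2 without the cells of low complexity, and next lowest were SDHC (-0.90, but 0.80 with all 96 cells of each group) and COX6A1 (1561 to 1005, -0.64).

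The ATP5A1 levels describe this step by cell. The median was 353 in BJ (quartiles 172 and 530) and 433 on day 2 (272 and 597), then 1223 on day 8 (863 and 1555), 1232 among positive (606 and 1708) and 1081 among negative cells (780 and 1331). The quartile ranges of BJ and day 2 did not overlap those of the 3 later groups, and the later groups overlapped widely. NDUFV1 was different: its median went from 68.1 in BJ and 53.9 on day 2 to 195 on day 8, and was 75.1 among positive and 110.3 among negative cells. It was detected in all 92 day 8 cells.

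How far the members moved at day 8 depends on the scaling. Median-of-ratios scaling lowered the median of all genes to -0.26 and that of the members to 0.10, with 4 members higher and 10 lower, and the deposited FPKM without rescaling gave 7 and 7. ATP5A1 was at 0.35 with the FPKM as deposited, and COX4I1 at 0.64 and NDUFS7 at 0.97 with median-of-ratios scaling, all under 2-fold. Scaling on 22 housekeeping genes gave 12 higher and 1 lower. The share of all genes past 2-fold under these scalings is not set beside the counts. The members stayed above the median gene in all 17 alternatives, by 0.29 to 0.85. The 0.85 came from mean log2 over cells, against all measured genes. By that measure genes with a mean of 100 or more had a median of 0.65, and the members at that level 0.99.

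At day 16 the positive and negative fractions, which divide cells by arrival at a pluripotency epitope, had like OXPHOS levels in the middle of the set. The median log2 ratio of positive over negative was 0.01, with 33 members above 0 and 33 below, and the median of 14060 measured genes was 0.06. There were 9 members higher and 2 lower (16.7%), against 47.6% of measured genes (26% higher, 21.6% lower) and 46.1% of those with a mean of 100 or more. Of the higher members, 3 were among the 8 of complex III and 5 among the 37 of complex I. Higher by 2-fold were NDUFV3 (77.2 and 28.97, 1.38), UQCRB (94.4 and 38.4, 1.28), NDUFS1 (108 and 45.6, 1.22), UQCRH (1.21), NDUFC2 (241 and 105, 1.19), NDUFS3 (435 and 192, 1.17), COX5A (728 and 331, 1.13), NDUFA5 (31.1 and 14.7, 1.03) and UQCR10 (553 and 275, 1.00). Lower were ATP5E and NDUFB6, an accessory subunit of complex I (109 and 290.1, -1.41). Next lowest was SDHC (-0.95).

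Means and typical cells differ in this comparison. Taken as a difference of mean log2(value + 1) over cells, the median member was at -1.14, with 8 of 66 above 0 and 38 past 2-fold lower, where the median gene was at -0.12. Abundant genes were low as a whole by this measure. Of the 1908 with a mean of 100 or more, 521 were above 0 and the median was -0.93, against -1.21 for the members at that level. Among cells with 4000 or more genes the same measure for the 66 members was 0.35, with 46 above 0, and the ratio of means 0.23, with 4 members higher (NDUFC2, NDUFV3, UQCRH and COX5A) and 2 lower (ATP5E and NDUFA12). NDUFS3 had such a gap between mean and typical cell: its mean in the positive fraction was 435 with a median cell of 148 and a highest cell of 7097, against a median of 169 in the negative fraction. NDUFS1, NDUFS3 and UQCRB had the opposite sign in mean log2 (-0.34, -0.67 and -0.08). Scaling also moves the split: housekeeping scaling gave 23 members higher and 1 lower, and median-of-ratios scaling 18 and 2, where the median of all genes itself stood at 0.74 and 0.55.

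NDUFB6 and NDUFA12, both accessory subunits of complex I, had low medians in the positive fraction. The NDUFB6 median was 244 in BJ, 295 on day 2, 345 on day 8, 92.2 among positive and 268 among negative cells, and the upper positive quartile of 161 lay below the lower quartile of the negative fraction, 188. In cells with 4000 or more genes its means were 162 and 294, which is under 2-fold. NDUFA12 had a median of 283 among positive cells (upper quartile 481) against 788 among negative (lower quartile 529.8) and 768 on day 8 (lower quartile 496), although 1 positive cell at 38095 put its mean at 1006. In cells with 4000 or more genes its means were 371 among positive and 812 among negative cells, past 2-fold.

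Against day 8, by ratios of rescaled means, both day 16 fractions had members lower while the median gene was higher. Housekeeping scaling put the positive fraction's median member at 0.03. In mean log2 over cells the median gene was at -0.085 in positive and 0.08 in negative over day 8, and the members at -1.62 and -0.48. By that measure genes with a mean of 100 or more were at -1.02 and -0.08. Positive over day 8 gave a median of -0.17 for the members and 0.49 for 13719 measured genes, with 2 members higher and 4 lower (9.09%, against 44.7% of measured genes, of which 33.1% were higher and 11.6% lower, and 37.1% of those with a mean of 100 or more). Negative over day 8 gave -0.24 and 0.49, with 1 member higher and 4 lower (7.58%, against 39.4% of 12965 genes, 28.8% higher and 10.6% lower, and 36.1% of those with a mean of 100 or more). The members stayed below the median gene in all 17 alternatives of both comparisons. Among genes with a mean of 100 or more the medians of all genes were closer, 0.18 and 0.15, and those of the members -0.31 and -0.25. Both comparisons share the day 8 cells, which day 8 over day 2 uses as well, so their values are given side by side only.

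In the positive fraction the highest members over day 8 were NDUFS3 (111 to 435, 1.96), NDUFA5 (14.1 to 31.1, 1.08) and, next in order, SDHC at 0.80. In mean log2 over cells NDUFS3 was at 0.16 and NDUFA5 at 0.19, and SDHC turned to -0.91 when all 96 cells of each group were used. The 4 lower were ATP5E, NDUFB6 (359 to 109, -1.71), UQCRQ, a small ubiquinone-binding subunit of complex III (213 to 84.6, -1.32), and COX5B (1613 to 793, -1.02). In cells with 4000 or more genes 1 member was 2-fold higher, SDHC (6.98 against 2.66), and 3 were lower, ATP5E, NDUFB6 and NDUFA12 (371 against 755). NDUFS3 (204 against 114), UQCRQ (115 against 206) and COX5B (946 against 1582) were under 2-fold there. In the negative fraction only SDHC was 2-fold higher over day 8 (3.16 to 12.96, 1.75), a difference that shrank to 0.06 when all 96 cells of each group were used, and next were COX6A1 (0.91) and NDUFS3 (0.78). The 4 lower were COX8A (2064 to 875, -1.24), UQCRH (-1.20), COX6C (999 to 469, -1.09) and UQCRQ (213 to 104, -1.03). UQCRQ was thus lower in both fractions, whereas COX8A was at -0.98 and UQCRH at 0.01 in the positive one. Housekeeping scaling gave 1 higher and 21 lower for the negative fraction, and 7 higher and 3 lower for the positive. The share of all genes past 2-fold under that scaling is not set beside these counts.

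**Figure D4:**
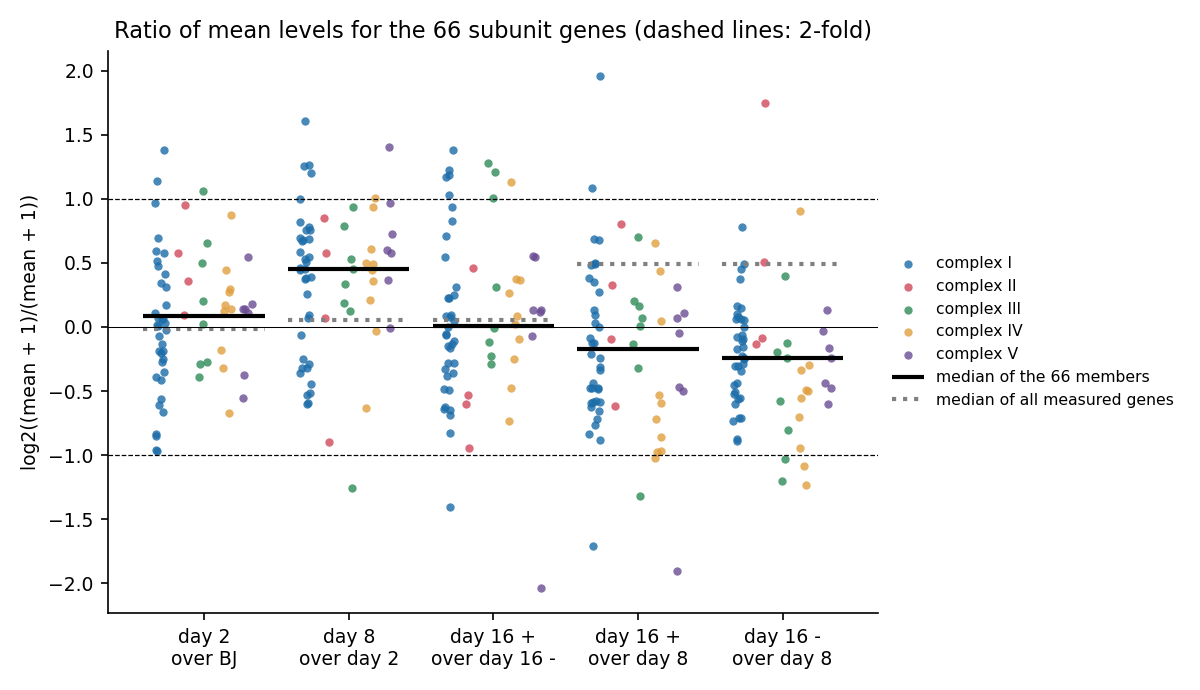
Log2 ratio of mean levels for each of the 66 genes in the 5 comparisons, coloured by complex, with the median member (solid bar) and the median of all measured genes (dotted bar); dashed lines mark 2-fold, and day 16 + and - are the TRA-1-60-positive and -negative fractions. The members' median is 0.45 at day 8 over day 2 and falls below the dotted bar at 0.49 in both comparisons with day 8.

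Across all 5 groups the members were level compared with other genes. The highest group mean was under 2-fold above the lowest for 31 of 66 members (47%), as for 15% of 15120 genes and 22.2% of the 2092 genes that reached a mean of 100 in any group. With 1 added to each mean, a 4-fold or larger range was found in 2 members, ATP5E and NDUFS1, or 3.03%, against 36.7 and 38.9%. SDHC spanned 4.29-fold on plain means and less than 4-fold with 1 added. In cells with 4000 or more genes the NDUFS1 means ran from 25.6 in BJ to 83.8 on day 8, which is under 4-fold. Day 8 was the highest group for 25 members and the lowest for 1, NDUFS3. Of the abundant genes 14.8% were highest and 11.5% lowest at day 8. The positive fraction was highest for 20 members and lowest for 10, and for 34.3 and 23.1% of the abundant genes. These counts include the cells of low complexity. In cells with 4000 or more genes the median summed share was 4.55% on day 8 and 4.51% in the positive fraction. BJ was the lowest group for 23 of the 66 members and for 25.2% of the abundant genes.

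Genes that serve the complexes were read beside the members. Of 42 assembly factors, 2 were 2-fold higher and 0 lower at day 2 over BJ, 3 and 4 at day 8 over day 2, 12 and 4 in positive over negative, 9 and 3 in positive over day 8, and 2 and 2 in negative over day 8. Those past 2-fold were 4.76, 16.7, 38.1, 28.6 and 9.52% of the list, against 25.5, 26, 47.6, 44.7 and 39.4% of all measured genes. BCS1L, which inserts the Rieske protein into complex III, had means of 1325, 2181, 59.7, 2466 and 69.9, a log2 ratio of -5.17 at day 8 over day 2, 5.12 in positive over negative and 5.35 in positive over day 8. Those ratios lie far outside the range of any of the 66 members. In the same comparisons the median of the complex III members was 0.39, 0.15 and 0.04. A link between BCS1L and complex III levels was not tested. SURF1, an assembly factor of complex IV, had 14.1, 10.8, 11.8, 54.6 and 91.4, the highest ratio of these lists in negative over day 8 (2.85). ATPAF1, a factor for the ATP synthase, was 1.34 on day 2 and -2.16 at day 8 over day 2, and UQCC3 was -1.35 in negative over day 8.

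The 12 other ATP synthase subunits that the symbol rule left out had 0 higher and 1 lower, 1 and 0, 2 and 0, 0 and 0, and 0 and 1 past 2-fold in the same 5 comparisons. Those were 8.33, 8.33, 16.7, 0 and 8.33% of the list, against 25.5, 26, 47.6, 44.7 and 39.4% of all measured genes. ATP5G3, which encodes the ring subunit c, was at -1.40 in negative over day 8. None of the 12 was low in the positive fraction as ATP5E was: their ratios to the negative fraction ran from -0.09 for ATP5J2 to 1.12 for ATP5G3. NDUFAB1, the acyl carrier protein of complex I, which the rule also left out, had means of 417, 782, 942, 1356 and 499. Of 11 tissue isoforms and partners 5 or 6 were measured in each comparison, with 0 higher and 1 lower, 1 and 0, 2 and 1, 0 and 1, and 0 and 2 (20, 16.7, 60, 16.7 and 33.3% of those measured). UQCRHL accounted for the largest (-2.98, 3.51, 5.15 in positive over negative and -4.81 in negative over day 8), and COX7A1, the heart and muscle form, was lower in the positive fraction, at 10.0 against 52.2 in the negative (-2.27) and 53.1 on day 8 (-2.30). COX7B2 and COX8C were listed at 0 in every group.

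Of 17 regulators of these genes, 14 to 16 were measured, with 3 higher and 0 lower, 2 and 2, 2 and 3, 6 and 2, and 3 and 0. Those were 20, 26.7, 31.2, 50 and 21.4% of the measured regulators, against 25.5, 26, 47.6, 44.7 and 39.4% of all measured genes. MYC, which is also 1 of the delivered factors, had means of 44.5, 988, 375, 75.1 and 334 (4.44 at day 2 over BJ and -2.31 in positive over day 8). The nuclear receptor ESRRA, an activator of OXPHOS genes, had 4.09, 14.8, 2.10, 3.78 and 4.69 (1.63 and then -2.34). The mitochondrial transcription and polymerase genes TFB1M and POLG were at 1.86 and 1.43 at day 8 over day 2. NRF1, the activator with known sites in many OXPHOS promoters, had a mean of 1.22 to 5.22 in all groups.

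Enzymes that feed or bypass the chain were mostly above 0 at day 8 over day 2, with 15 of 18 genes of the tricarboxylic acid cycle and 16 of 22 of glycolysis. So were 6612 of 12577 measured genes (median 0.06) and 803 of the 1357 with a mean of 100 or more (median 0.17). Past 2-fold, of the 18 tricarboxylic acid cycle genes, 1 was higher and 1 lower, 3 and 0, 3 and 1, 3 and 2, and 2 and 1, with IDH2 at -2.01 at day 2 over BJ, OGDH at 2.40 in positive over day 8, and pyruvate carboxylase PC at -2.34 in positive over negative and 2.50 in negative over day 8. Past 2-fold were 11.1, 16.7, 22.2, 27.8 and 16.7% of that list, against 25.5, 26, 47.6, 44.7 and 39.4% of all measured genes. The median of that list at day 8 over day 2 was 0.35. Of 22 glycolysis genes, 2 were higher and 2 lower, 4 and 1, 4 and 4, 5 and 2, and 4 and 0, with a median of 0.33 at day 8 over day 2. Those past 2-fold were 18.2, 22.7, 36.4, 33.3 and 18.2% of the measured genes of that list. The glucose transporter SLC2A3 had 11.4, 7.88, 19.9, 195 and 20.5 (3.19 over the negative fraction and 3.22 over day 8). The lactate exporter SLC16A3 went the other way, at 0.237 among positive and 12.1 among negative cells (-3.41, and 2.75 in negative over day 8). PFKL was at -1.70 at day 2 over BJ and PFKP at -1.95 in positive over day 8. Of 19 genes of mitochondrial import, cristae and carriers, 18 were measured, with 3 higher and 2 lower, 1 and 1, 6 and 0, 4 and 0, and 1 and 3. Those past 2-fold were 27.8, 11.1, 33.3, 22.2 and 22.2% of the 18. In positive over negative 16 of those 18 were above 0 and their median was 0.74, where that of the OXPHOS members was 0.01. Of all measured genes, 7277 of 14060 were above 0. In mean log2 over cells 11 of the 18 were above 0 and their median was 0.26, where that of the OXPHOS members was -1.14.

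The promoters of some members hold known activator motifs, which the choice of genes did not use. RefSeq promoters (250 bases before to 50 after the start, build GRCh38.p14) were found for 56 of the 66 members. The NRF1 motif, searched on both strands as GCGCA and GCGC with 1 base of any kind between them, was in those of 14 members (25%) and of 1905 of 27305 genes with a promoter (6.98%). The ETS motif CCGGAAG was in 16 (28.57%) against 12.16% of all, and 2 members held both (3.57% against 1.56%). A match describes these letters only. Windows of 30 bases are shown for 1 member each of complexes I, II and V that hold the same 10 bases, in capitals, all on the + strand: NDUFB4 at chr3:120596167-120596196, SDHD at chr11:112086753-112086782 and ATP5C1 at chr10:7788145-7788174.
NDUFB4: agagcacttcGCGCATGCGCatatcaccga
SDHD: agctgtgtttGCGCATGCGCgacgggtgtg
ATP5C1: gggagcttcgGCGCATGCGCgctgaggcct

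Members with and without the NRF1 letters had medians that lay close together in 4 comparisons: 0.08 and 0.07 at day 2 over BJ, 0.55 and 0.45 at day 8 over day 2, 0.09 and -0.10 in positive over negative, and -0.13 and -0.30 in negative over day 8. In positive over day 8 they were 0.08 for the 14 with the letters and -0.47 for the 42 without. For the ETS letters that pair was -0.17 and -0.31. These medians use means over all kept cells, and 32 of the positive cells had under 4000 genes. The medians without such cells were not taken. The 3 genes shown had log2 ratios of 0.10 (NDUFB4), 0.32 (SDHD) and -0.50 (ATP5C1) in positive over day 8, all under 2-fold. NDUFA8, a gene on the - strand that holds the same 10 bases, had means of 236.8 among positive cells and 237.5 on day 8. The part of the motif in these values was not tested. In cells with 4000 or more genes the positive and day 8 means were 865 and 897 for NDUFB4. They were 294.5 and 225 for SDHD, and 694 and 774.5 for ATP5C1.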

How the data were processed

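The values analysed are FPKM in 5 deposited tables, 1 per group, with 27021 genes each; STAR and Cuffnorm on hg19 are listed in the submitters' processing notes, without versions. The labels do not state whether the authors normalized the tables together. FPKM were rescaled to 1000000 per cell. Cells with under 2000 genes at 1 or more, or without ACTB and GAPDH, were left out (4, 0, 4, 1 and 11 in BJ, day 2, day 8, positive and negative fraction). Doublets could not be called from these values. A gene was measured where 1 group of the pair had a mean of at least 1, and ratios used a pseudocount of 1. Each group was treated as 1 sample, so no test was run; the ratio script was tested on simulated data. Intervals are Clopper-Pearson. Near-identical copies were found with blastn 2.17.0. Other tools were Python 3.11.15, numpy 2.4.6, pandas 2.3.3, scipy 1.17.1 and matplotlib 3.10.9. Members and gene lists were chosen with earlier results of these data known. Named were genes with a copy row, the 3 highest and 3 lowest members of each comparison, those past 2-fold, the 2 highest and 1 lowest by level in each complex, and up to 3 list genes in each direction per comparison, by size; other names were chosen after their values were seen. Of the alternative settings tried, 15 were chosen at the outset and 2 after the data were seen.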

Additional observations from a re-analysis of the deposited data

How the results depend on the processing

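Of 17 alternatives, 2 were chosen after seeing the data (members with a mean of 100 or more, and mean log2 in cells with 4000 or more genes). The medians ranged from 0.03 to 0.36 for day 2 over BJ, 0.10 to 1.01 for day 8 over day 2, and -0.80 to -0.23 for negative over day 8, keeping their sign. Positive over negative ranged from -1.14 with mean log2 to 0.68 with housekeeping scaling, under which that of all genes was 0.74, and positive over day 8 from -1.62 with mean log2 to 0.0265 with housekeeping scaling (all genes 0.75), a change of sign. The cause was not tested. With mean log2, genes with a mean of 100 or more had medians of -0.93 in positive over negative and -1.02 in positive over day 8. Members past 2-fold that changed sign were NDUFA12 at day 2 over BJ (-0.0855 in cells with 4000 or more genes) and, in positive over negative with mean log2, NDUFS1 (-0.34), NDUFS3 (-0.67, and -0.0302 in cells with 4000 or more genes) and UQCRB (-0.0769). Named members under 2-fold did so too: with all 96 cells SDHC at day 8 over day 2 (-0.90 to 0.80) and in positive over day 8 (0.80 to -0.91), and under other settings, at their farthest, UQCRH at day 8 over day 2 (0.13 to -0.06) and in positive over day 8 (0.01 to -0.85), and ATP5E at day 8 over day 2 (-0.01 to 0.20) and in negative over day 8 (0.13 to -0.44). ATP5E stayed lower in the positive fraction in all 17 (-3.79 to -1.39 over negative, -3.66 to -1.65 over day 8).

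The counts below are of members only, without the share of all genes past 2-fold under each setting. They therefore do not show a change particular to the members. In mean log2, genes with a mean of 100 or more had medians of 0.65 at day 8 over day 2, -0.93 in positive over negative, -1.02 in positive over day 8 and -0.08 in negative over day 8. Counts of members past 2-fold moved by over 1.5 times as follows. With FPKM as deposited, 13 were higher at day 2, 7 lower at day 8 over day 2, 4 higher and 11 lower in positive over day 8, and 12 lower in negative over day 8. With housekeeping scaling, 12 were higher at day 8 over day 2, 23 higher and 1 lower in positive over negative, 7 higher in positive over day 8, and 21 lower in negative over day 8. With median-of-ratios scaling the counts were 7 higher and 1 lower at day 2, 10 lower at day 8, 18 higher in positive over negative, 5 higher and 11 lower in positive over day 8, and 23 lower in negative over day 8. With mean log2 they were 1 higher and 2 lower at day 2, 33 higher and 0 lower at day 8, 0 higher and 38 lower in positive over negative, 0 and 49 in positive over day 8, and 14 lower in negative over day 8. The same in cells with 4000 or more genes gave 0 lower at day 8, 1 higher and 7 lower in positive over day 8, and 11 lower in negative over day 8. Ratios of means in those cells gave 0 higher at day 2, 0 lower at day 8, 4 higher in positive over negative and 1 higher in positive over day 8, and leaving out each gene's highest cell gave 1, 0, 4 and 1 for the same. All 96 cells gave 4 lower in positive over negative. A mean of 100 or more and a pseudocount of 10 each gave 1 higher in positive over day 8 and 0 higher in negative over day 8, and a pseudocount of 0.1 gave 2 lower at day 8. Without members that have a copy row, 0 were lower at day 8 and 1 in positive over negative. No paired analysis was possible because the results come from no test and the shared numbers only name cells.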
